A study of Homo sapiens with 6 samples.

Results

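The genes described here are the nuclear-encoded subunits of the oxidative phosphorylation machinery in HMC3 cells, a line made from human microglia with the SV40 large T antigen. They were taken from the count table by gene symbol, as every symbol that begins with NDUF and A, B, C, S or V, with UQCR, with COX and a digit from 4 to 8, or with ATP5, plus SDHA, SDHB, SDHC and SDHD. Of 103 symbols that matched, 6 antisense genes and pseudogenes were left out, which left 97 members of the 27469 genes with values. The symbols are those of the deposited table, some of which have since been renamed (ATP5A1 is now ATP5F1A, and ATP5G2 is now ATP5MC2). By their known products, 83 members were counted as subunits. Of these, 37 are in complex I, 4 in complex II, 8 in complex III, 19 in complex IV and 15 in complex V. The complex IV count includes COX7A2L, a factor that joins complexes III and IV. The other 14 members are not subunits: 9 complex I assembly factors, factor B of ATP synthase (ATP5S), 2 read-through transcripts and the retrocopies UQCRHL and ATP5L2. NDUFA4 and its paralog NDUFA4L2 carry complex I names but were placed in complex IV, where the NDUFA4 protein is now known to reside.

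The study compared 3 libraries of HMC3 cells labelled Control with 3 libraries of the same line given interleukin-33 (IL-33), a cytokine of the interleukin-1 family, for 24 h. RNA was measured with a QuantSeq 3' library, which reads a tag near the 3' end of each polyadenylated transcript. The dose of IL-33 and what the Control cells received are not given in the labels. Nothing there says that the libraries came from separate cultures either, so each p-value is relative to a spread between libraries that may be technical. HMC3 is a single immortalised line and stands for no other source of microglia.

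Oxidative phosphorylation takes place in the inner mitochondrial membrane. Complexes I and II pass electrons from NADH and succinate to ubiquinone, complex III passes them on to cytochrome c, and complex IV reduces oxygen with them. Complexes I, III and IV pump protons, and the gradient drives ATP synthase, complex V. All complexes but complex II combine subunits made from nuclear genes with subunits made from mitochondrial DNA, and in microglia, as in other macrophage-related cells, the balance between this pathway and glycolysis is known to shift with activation. The 13 mitochondrially encoded subunits were not matched in the table and are not analysed here.

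Libraries held 5739947 to 10217529 counts, and the members took 1.41% to 1.48% of them. Levels are given in CPM, counts scaled to a library of 1e6 after adjustment of the library sizes, and values are listed in the order of the replicate numbers. In this assay the count of a gene does not grow with transcript length, so CPM values of different genes can be set side by side as numbers of tags, as far as each 3' end is annotated. A count of 0 allows up to 3 counts, which is 0.293 to 0.543 CPM depending on the library, and such limits cover counting error only. The library Control 3 had the lowest total and stood apart from the other libraries, so values that it moves most are also given without it. Of 14 microglia and macrophage markers, 8 had 0 counts in all libraries, among them ITGAM, P2RY12, TMEM119, CX3CR1 and SPI1. The summed level of that list was 3.57 to 8.32 CPM in Control and 3.89 to 6.84 CPM with IL-33, with CD68 the highest at 2.75 CPM. The fibroblast and mesenchymal list of 6 genes summed to 821 to 1022 CPM in Control and 901 to 1054 CPM with IL-33. That sum was mostly COL1A1 at 721 CPM and THY1 at 210 CPM. COL1A2 lay at 15.6 CPM, DCN had 14 counts in all, and COL3A1 and LUM had 0 counts in all libraries. IL33 had 0 counts in all libraries and the receptor gene IL1RL1 had 11 counts in all, while the co-receptor gene IL1RAP lay at 6.23 ± 0.905 CPM without IL-33 and 5.37 ± 2.45 CPM with it (SD, n = 3), a log2 fold change of -0.23 ± 0.39 (SE).

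The comparison of IL-33 with Control asked whether the genes of the respiratory chain and ATP synthase differed after 24 h of the cytokine. None of the members passed the test in either direction. Their transcripts lay at nearly the same level in both groups: the members tested summed to 14388 ± 462 CPM in Control and to 14533.5 ± 646 CPM after IL-33 (SD, n = 3 each). By library the sums were 14010.5, 14251 and 14903 CPM in Control and 15049.9, 14741 and 13809.7 CPM with IL-33. The highest and the lowest of these sums were both IL-33 libraries, so the groups overlapped. Values are shares of the RNA of each library, so a change in cell number or in total RNA per cell would not by itself show in them.

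A filter on low counts left 88 of the 97 members for testing. With edgeR's quasi-likelihood test, 0 of these 88 passed a Benjamini-Hochberg adjusted p of 0.05, as did 0 of all 12125 genes tested (0%). At an unadjusted p under 0.05 there were also 0 members, against 295 genes (2.43% of all tested). DESeq2 and limma-voom likewise called 0 members. The smallest p among the members was that of ATP5A1, with an adjusted p of 0.999 by edgeR. Log2 fold changes of the members, IL-33 minus Control, ran from -0.50 for SDHD to 0.55 for COX6B2, with a median of 0.02 and 49 of 88 above 0. The median over all genes tested was -0.01. The 3 IL-33 values lay above all Control values in 3 members (SDHC, UQCRC2 and ATP5E), where 4.54% of all genes did so, and below all Control values in 2 (NDUFAB1 and ATP5A1), where 3.51% of all genes did so. With Control 3 left out, 13 members lay above and 12 below, where fewer values have to line up and 11.1% and 11.0% of all genes did so. With any of the other 5 libraries left out, between 4 and 12 lay above, where 8.40% to 9.54% of all genes did so, and between 3 and 6 below, where 7.22% to 8.52% did so.

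These fold changes were measured closely relative to the spread between libraries, which may be technical. The 95% intervals lay within -1 to 1 on the log2 scale for 82 of 88 members, and within -0.5 to 0.5 for 69 of them (78.4%). Over all genes tested the narrower range held 39.8%. The members are abundant, and the comparison at matched abundance was closer: between 50 and 500 CPM, 94.0% of 67 members and 92.4% of 3418 genes had an interval that narrow. The biological coefficient of variation, the spread between libraries beyond counting noise, had a median of 10.8% in these members and 11.5% in those genes. The remaining 19 members had wider intervals. Of these, 10 had a mean under 30 CPM, 7 others were at least 0.7 log2 units lower in Control 3 than in the other Control libraries, and the others were NDUFS1 and SDHA, whose intervals ended just beyond -0.5.

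**Figure D1:**
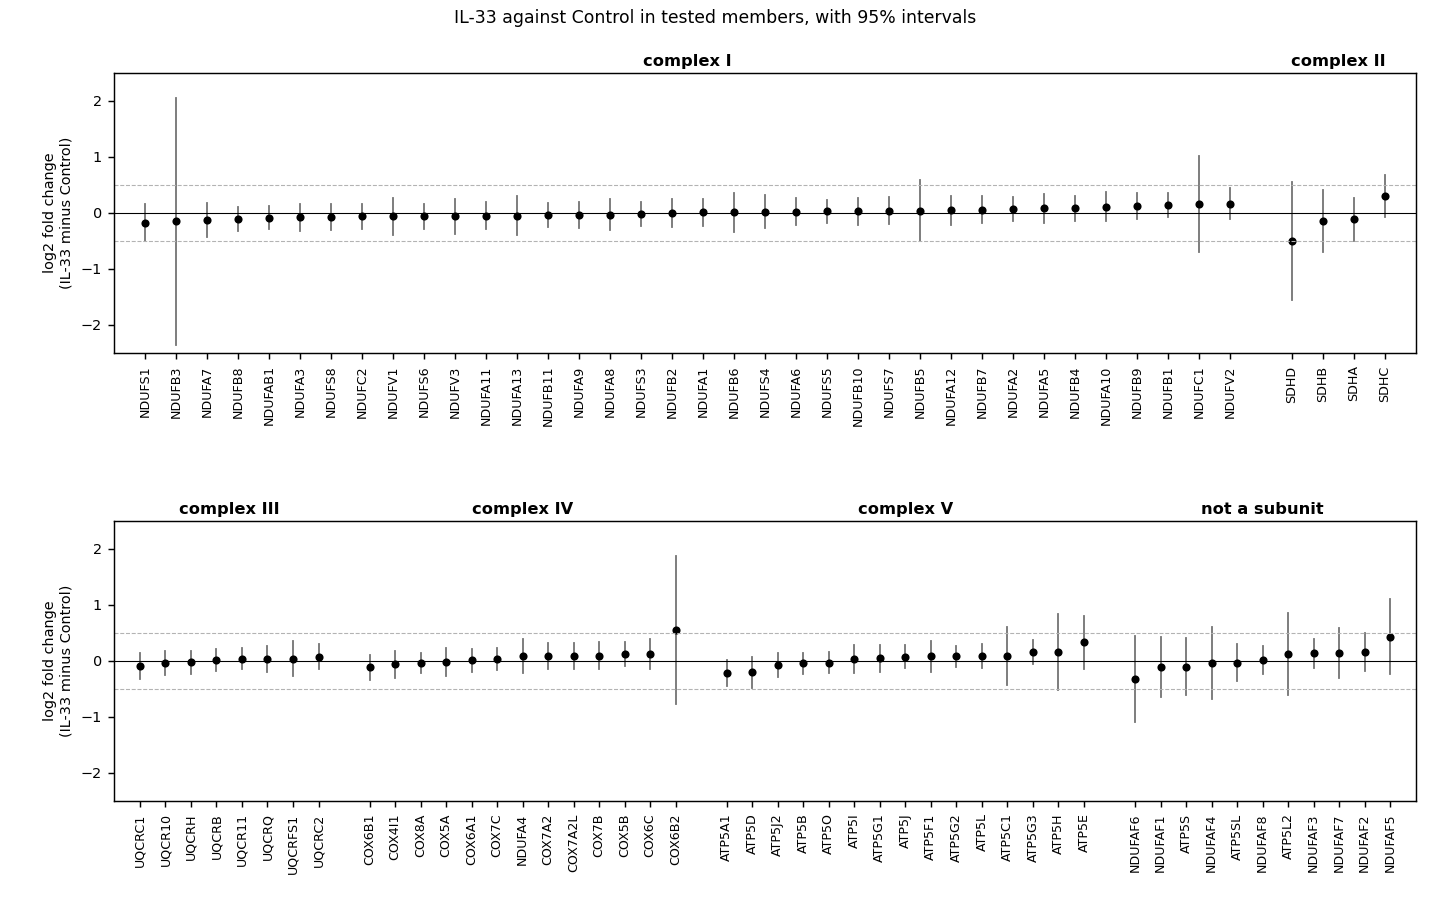
Log2 fold change of IL-33 against Control (vertical axis) for the tested members reported, grouped by complex and ordered by value. Points are estimates from edgeR, vertical lines their 95% intervals, and dashed lines mark -0.5 and 0.5. All intervals shown cross 0, and the widest is that of NDUFB3, from -2.37 to 2.06.

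Subunits of the same complex lay at very different transcript levels. In complex I the mean level over the 6 libraries ran from 43.7 CPM for NDUFS1 to 304 CPM for NDUFS6, a ratio of 6.94, with a median of 129 CPM. Complex III ran from 50.2 CPM for UQCRFS1 to 619 CPM for UQCRB. Complex V ran from 16.0 CPM for ATP5E to 855 CPM for ATP5L, the highest of all members. The ATP5E level is uncertain, because its pseudogene copy ATP5EP2 lay at 16.4 CPM and reads may be split between them. The 11 subunits of complex IV present in all tissues lay between 84.6 and 520.3 CPM. Complex II was the lowest, with a median of 40.8 CPM against 129 to 205 CPM in the other complexes, and no gene in it exceeded the 48.4 CPM of SDHA.

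**Figure D2:**
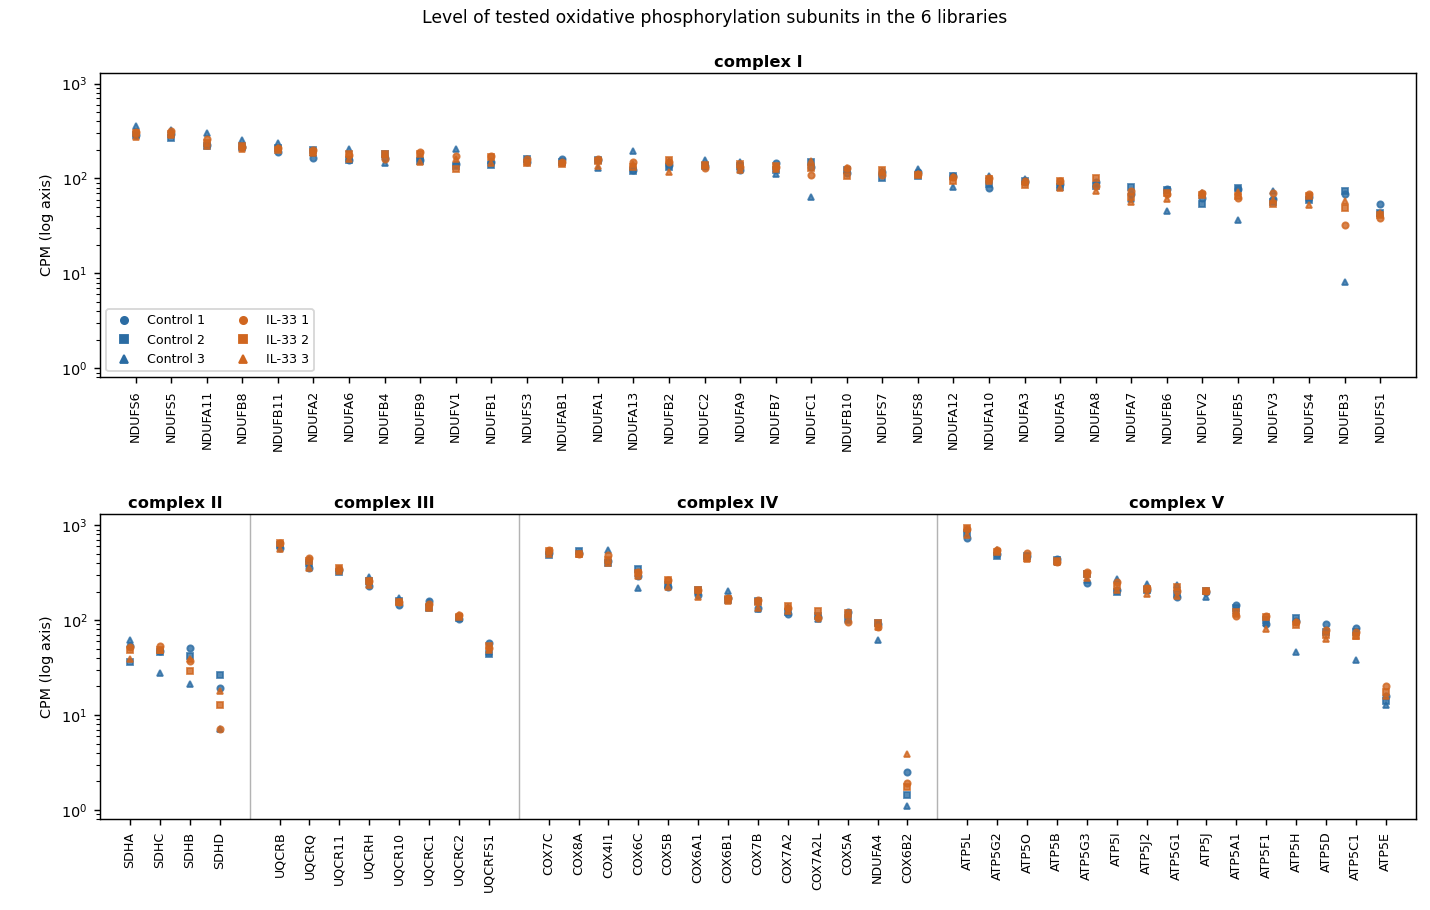
Level in CPM (log axis) of the tested subunits reported, in each of the 6 libraries, by complex and in order of mean level. Blue marks are Control, orange marks IL-33, and the shape gives the replicate number. The libraries of both groups overlap for most genes, and the blue triangle of Control 3 lies well below the rest for NDUFB3 at 8.14 CPM and for several other members.

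Complex I, NADH dehydrogenase, had 37 members, of which 0 changed. Their median log2 fold change was -0.01, with 18 of 37 above 0. The 7 nuclear-encoded core subunits, which carry the flavin and the iron-sulphur clusters, ranged from -0.17 to 0.16. NDUFV1, the flavin-binding subunit where NADH is oxidised, measured 142, 136 and 203 CPM in the Control libraries and 171, 126 and 162 CPM in the IL-33 libraries. The groups overlapped, and its highest value came from Control 3, without which its log2 fold change turned from -0.07 ± 0.16 (SE) to 0.14. NDUFV2, its partner in the same arm, measured 62.8, 53.9 and 69.5 CPM in the Control libraries and 69.7, 67.4 and 70.6 CPM in the IL-33 libraries, a log2 fold change of 0.16 ± 0.13 (SE) with a 95% interval of -0.12 to 0.44. NDUFS1, the large iron-sulphur subunit, measured 54.2, 42.9 and 41.8 CPM in the Control libraries and 38.6, 41.2 and 43.7 CPM in the IL-33 libraries. Control 1 was the highest library for NDUFS1, and the other 5 lay between 38.6 and 43.7 CPM. The log2 fold change was -0.17 ± 0.16 (SE).

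Core subunits of the arm that binds quinone also lay close to 0 in the comparison. NDUFS7, which carries the last iron-sulphur cluster before quinone, had a log2 fold change of 0.04 ± 0.11 (SE). NDUFS3 measured 148, 159 and 159 CPM in the Control libraries and 161, 147 and 151 CPM in the IL-33 libraries, a log2 fold change of -0.02 ± 0.10. NDUFS8 lay at 116 ± 10.1 CPM without IL-33 and 110.3 ± 2.53 CPM with it (SD, n = 3 each). In NDUFS3, NDUFS7 and NDUFS8 the 2 groups overlapped.

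The 30 supernumerary subunits of complex I, which surround the core and are needed for its assembly and stability, centred on a log2 fold change of 0.01 (median), 16 of them above 0. NDUFS6, the most abundant complex I transcript, measured 286, 288 and 359 CPM in the Control libraries and 311, 304 and 276 CPM in the IL-33 libraries. Control 3 was its highest library, and the direction of its fold change, -0.06 ± 0.11 (SE), turned to 0.05 without that library. NDUFAB1 encodes the mitochondrial acyl carrier protein, which also serves fatty acid and lipoic acid synthesis, and it was the sole complex I gene whose groups did not overlap. It measured 162, 149 and 152 CPM in the Control libraries and 148, 142 and 146 CPM in the IL-33 libraries. All 3 IL-33 values lay below all Control values, by at least 0.143 CPM, and the log2 fold change was -0.09 ± 0.10 (SE), which is within the error. NDUFB1, a small subunit of the membrane arm, had the smallest p in this complex with 148, 139.6 and 154 CPM in the Control libraries and 172, 167 and 147 CPM in the IL-33 libraries, and its log2 fold change of 0.14 ± 0.11 did not pass the test.

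Complex II, succinate dehydrogenase, also works in the citric acid cycle and is encoded wholly in the nucleus. Among the 5 complexes it had the largest median standard error of the log2 fold change, 0.22 against 0.11 over all tested subunits. SDHA, the flavoprotein that oxidises succinate, measured 53.3, 36.2 and 61.9 CPM in the Control libraries and 52.5, 48.1 and 38.4 CPM in the IL-33 libraries. SDHB, which carries the iron-sulphur clusters, measured 51.0, 42.0 and 21.2 CPM in the Control libraries and 36.8, 29.4 and 38.5 CPM in the IL-33 libraries. SDHC and SDHD anchor the complex in the membrane, and SDHC measured 47.4, 46.0 and 27.5 CPM in the Control libraries and 53.1, 48.1 and 48.6 CPM in the IL-33 libraries. SDHA was highest in Control 3, whereas SDHB and SDHC were lowest there.

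All 3 IL-33 values of SDHC lay above all Control values, with a log2 fold change of 0.30 ± 0.18 (SE) and a 95% interval of -0.08 to 0.68. Without Control 3 that value was 0.10. SDHD measured 19.1, 26.3 and 7.06 CPM in the Control libraries and 7.14, 12.7 and 17.8 CPM in the IL-33 libraries. Control 3 and IL-33 1 were lowest, at nearly the same level, and the groups overlapped. The log2 fold change of SDHD was -0.50 ± 0.46 (SE) with an interval of -1.55 to 0.55, the lowest estimate of any member, and it ran from -0.86 to -0.09 when each library was left out in turn. SDHD, on the plus strand of chromosome 11 from 112086773 to 112120013, overlaps TIMM8B, which lies on the opposite strand at 62.2 CPM, so reads of the 2 genes could be mixed if the counting ignored strand.

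Complex III, the cytochrome bc1 complex, had 8 members with log2 fold changes between -0.09 and 0.07 and a median of 0.03. All 8 had a 95% interval within -0.5 to 0.5. UQCRFS1, the Rieske iron-sulphur protein, measured 58.0, 44.4 and 46.3 CPM in the Control libraries and 50.8, 53.5 and 48.4 CPM in the IL-33 libraries, with overlapping groups. The core proteins UQCRC1 and UQCRC2 flank the complex on the matrix side, and UQCRC1 had a log2 fold change of -0.09 ± 0.11 (SE). UQCRC2 measured 103, 106 and 108 CPM in the Control libraries and 112, 109 and 113 CPM in the IL-33 libraries. All IL-33 values of UQCRC2 lay above all Control values, by 0.494 CPM or more, and the log2 fold change was 0.07 ± 0.11 (SE). UQCRB, which contacts the ubiquinone-binding region, was the most abundant member of the complex and measured 581, 623 and 641 CPM in the Control libraries and 651, 657 and 559.7 CPM in the IL-33 libraries, a log2 fold change of 0.02 ± 0.10. CYC1 encodes cytochrome c1, the remaining nuclear-encoded catalytic subunit, and lies outside the symbol rule. It measured 139.9 ± 18.1 CPM without IL-33 and 131 ± 7.56 CPM with it (SD, n = 3 each), with a log2 fold change of -0.09 ± 0.11 (SE), which was 0.01 without Control 3.

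Complex IV, cytochrome c oxidase, had 13 tested members with a median log2 fold change of 0.08 and 9 of 13 above 0. COX4I1, the largest nuclear-encoded subunit, measured 421, 402 and 549 CPM in the Control libraries and 485, 426 and 402 CPM in the IL-33 libraries, and its log2 fold change was -0.06 ± 0.12 (SE) with all libraries and 0.09 without Control 3. COX5A, which lies on the matrix side, had a log2 fold change of -0.02 ± 0.12 (SE). COX5B, the zinc-binding subunit, measured 226, 234 and 232 CPM in the Control libraries and 265, 267 and 221 CPM in the IL-33 libraries, and its IL-33 1 and IL-33 2 values lay above all Control values while IL-33 3 lay below them. Its log2 fold change was 0.12 ± 0.10 (SE). COX7C was the most abundant at 514 ± 23.8 CPM without IL-33 and 527 ± 28.3 CPM with it (SD, n = 3 each). COX6B1, which faces the intermembrane space, had -0.12 ± 0.11 (SE), and without Control 3 that value was -0.01. COX7A2L, a factor that joins complexes III and IV into a supercomplex, had 0.09 ± 0.11.

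Several subunits of complex IV exist in alternative forms made from separate genes, and in each pair the form known from most tissues took nearly all counts in both groups. COX4I2, a form known from lung and low oxygen, had 0 counts in all libraries, whereas COX4I1 had 3033 to 4555 counts, at least 1011-fold more than the 3 counts per library that a 0 allows. COX6A2 and COX7A1, forms of heart and skeletal muscle, also had 0 counts in all libraries. Their partners COX6A1 and COX7A2 lay at least 360.3-fold and 255-fold above that limit in the library where each ratio was smallest. COX7B2 and COX8C, known mainly from testis, had 0 counts, with COX7B and COX8A at least 242-fold and 912-fold above the limit. COX6B2, another testis form, was the exception with 6 to 33 counts per library, and took 0.528% to 2.38% of the counts of the COX6B1 and COX6B2 pair. The 95% Clopper-Pearson intervals of those shares ran from 0.194% at the lowest to 3.33% at the highest, with counting error only. COX6B2 measured 2.48, 1.44 and 1.09 CPM in the Control libraries and 1.92, 1.76 and 3.89 CPM in the IL-33 libraries, and its log2 fold change of 0.55 ± 0.63 (SE) had an interval of -0.77 to 1.88. IL-33 3 was its highest library and the other 5 lay between 1.09 and 2.48 CPM.

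NDUFA4L2 is a paralog of NDUFA4 that is known to be induced in low oxygen. It had 2 counts each in Control 3 and IL-33 1, and 0 elsewhere, while NDUFA4 measured 91.6, 92.6 and 61.9 CPM in the Control libraries and 84.5, 92.3 and 84.5 CPM in the IL-33 libraries. No fold was computed for NDUFA4L2, which was at or below the limit of 3 counts in every library. UQCRHL, a retrocopy of the complex III hinge gene UQCRH, had 0 to 15 counts per library, no more than 0.645% of the pair. The retrocopy ATP5L2 took 0.557% to 1.25% of the counts it shared with ATP5L. Reads of such near-identical copies can be lost or split between them, so these small shares are uncertain. The read-through transcripts ATP5J2-PTCD1 and NDUFC2-KCTD14 had 0 counts in all libraries. Both overlap the genes they join on the same strand, so tags in the shared parts may not have been assigned to them.

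**Figure D3:**
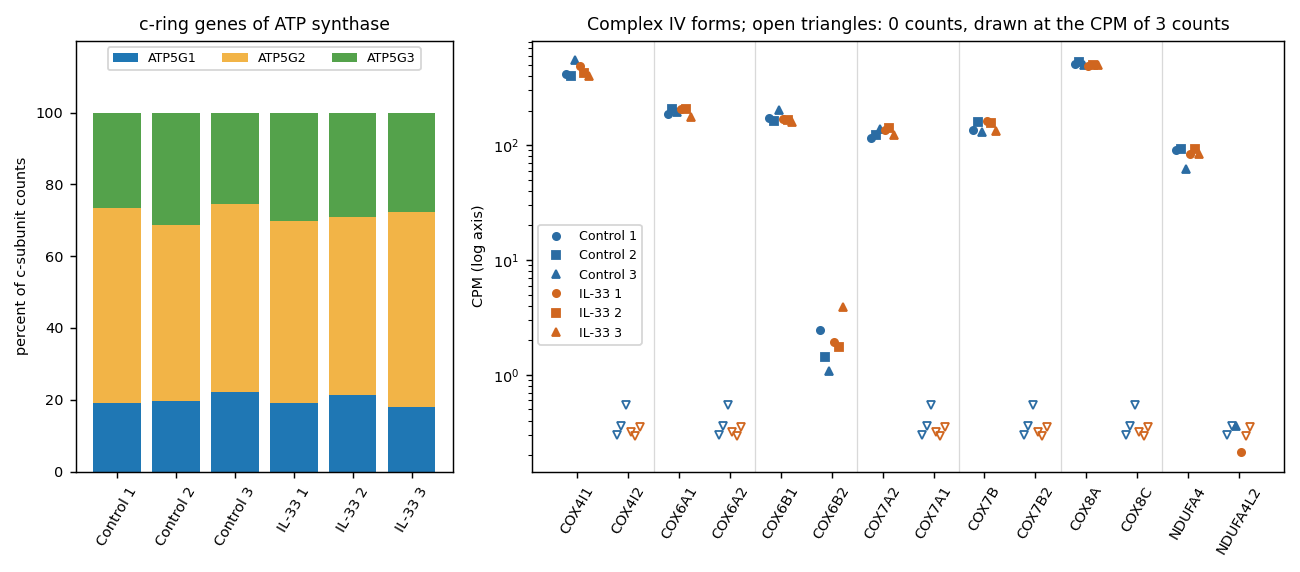
Left, percent of the counts of the 3 c-subunit genes taken by each in every library. Right, level in CPM (log axis) of complex IV genes beside their alternative forms, with Control in blue and IL-33 in orange. Open triangles mark 0 counts and are drawn at the CPM of 3 counts. COX4I2, COX6A2, COX7A1, COX7B2 and COX8C are at 0 in all 6 libraries, and ATP5G2 takes 49.1% to 54.3% of the c-subunit counts.

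Complex V, ATP synthase, had 15 members, of which 0 changed, with a median log2 fold change of 0.07 and 10 above 0. In the F1 head, which makes ATP, the alpha subunit ATP5A1 (minus strand of chromosome 18, 46080248 to 46104334) measured 145, 133 and 126 CPM in the Control libraries and 110.4, 122 and 115 CPM in the IL-33 libraries. All 3 IL-33 values lay below all Control values, the nearest pair 3.97 CPM apart. The log2 fold change of ATP5A1 was -0.22 ± 0.11 (SE), a 95% interval of -0.44 to 0.01, and its unadjusted p of 0.0603 by edgeR was the smallest of any member (adjusted p = 0.999). It ran from -0.26 to -0.16 when each library was left out in turn. The beta subunit ATP5B, which holds the catalytic sites together with alpha, measured 443, 427 and 408 CPM in the Control libraries and 406, 423 and 411 CPM in the IL-33 libraries. Its groups overlapped, with a log2 fold change of -0.04 ± 0.09 (SE) and an interval of -0.23 to 0.14.

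The central stalk turns inside the head. Its gamma subunit ATP5C1 measured 83.4, 74.1 and 38.0 CPM in the Control libraries and 74.3, 67.9 and 67.4 CPM in the IL-33 libraries, with Control 3 far below the other 5 libraries. The delta subunit ATP5D had a log2 fold change of -0.20 ± 0.13 (SE) and measured 91.1, 75.5 and 76.7 CPM in the Control libraries and 78.6, 69.7 and 63.2 CPM in the IL-33 libraries, with overlapping groups. The epsilon subunit ATP5E measured 15.8, 13.9 and 12.7 CPM in the Control libraries and 20.4, 17.5 and 15.8 CPM in the IL-33 libraries. All its IL-33 values lay above all Control values, though IL-33 3 exceeded Control 1 by only 0.007 CPM, and the log2 fold change of 0.33 ± 0.23 did not pass the test. Its counts are uncertain, because ATP5EP2, a pseudogene copy that the symbol rule left out, lay at 16.4 CPM, beside 16.0 CPM for ATP5E. ATP5EP2 had 186, 135 and 56 counts in Control and 136, 255 and 118 counts with IL-33, and these groups overlapped.

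The c-ring of the membrane part is made from ATP5G1, ATP5G2 and ATP5G3, which encode the same mature protein behind different import sequences. ATP5G2 took 52.0% ± 2.64 of their counts in Control and 51.5% ± 2.50 with IL-33 (SD, n = 3 each). ATP5G3 took 27.8% ± 3.08 and 28.9% ± 1.30, and ATP5G1 20.2% ± 1.65 and 19.6% ± 1.71. Each difference was smaller than the spread between libraries. ATP5G3, which had the largest fold change of the 3 genes, measured 245, 303 and 267 CPM in the Control libraries and 323, 306 and 276 CPM in the IL-33 libraries, a log2 fold change of 0.15 ± 0.10 (SE).

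Among the other membrane subunits, ATP5L, the g subunit, measured 733, 837 and 917 CPM in the Control libraries and 920.3, 936 and 785 CPM in the IL-33 libraries, and its log2 fold change was 0.09 ± 0.10 (SE), which ran from 0.01 without Control 1 to 0.17 without Control 3. ATP5I, the e subunit next to it, had 0.03 ± 0.12. In the peripheral stalk, which holds the head still, ATP5O had -0.03 ± 0.09, ATP5J had 0.07 ± 0.10 and ATP5F1 had 0.08 ± 0.13. The subunits USMG5 and C14orf2, which join ATP synthase in the membrane and lie outside the symbol rule, had log2 fold changes of 0.06 ± 0.12 and 0.06 ± 0.10. ATPIF1, the inhibitor that blocks reverse action of the enzyme, measured 267 ± 26.2 CPM without IL-33 and 277 ± 20.9 CPM with it (SD, n = 3 each), a log2 fold change of 0.06 ± 0.10 (SE).

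Of the 14 members that are not subunits, 11 were tested and 0 changed, with a median log2 fold change of 0.01. NDUFAF8, which supports the assembly factor NDUFAF5, was the most abundant at 189.7 ± 35.0 CPM without IL-33 and 191 ± 12.5 CPM with it (SD, n = 3 each). The other factors lay lower. NDUFAF5, which modifies NDUFS7 during assembly, measured 8.84, 5.77 and 5.43 CPM in the Control libraries and 10.3, 8.11 and 8.84 CPM in the IL-33 libraries, and its log2 fold change of 0.43 ± 0.32 (SE) had an interval of -0.24 to 1.10. NDUFAF3, which acts in early assembly of the quinone module, measured 70.7, 71.4 and 78.0 CPM in the Control libraries and 85.6, 72.8 and 82.4 CPM in the IL-33 libraries, a log2 fold change of 0.13 ± 0.12.

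Several members rested on 1 library, Control 3. At a mean of 30 CPM or more, 6 of 78 members (7.69%) lay in Control 3 more than 1 log2 unit below the mean of Control 1 and Control 2, against 105 of 5287 genes (1.99%) in the whole table. They were NDUFB3, NDUFC1 and NDUFB5 of complex I, SDHB of complex II, and ATP5H and ATP5C1 of complex V. NDUFB3 is a membrane-arm subunit on the plus strand of chromosome 2 from 201071433 to 201085750 (GRCh38, positions from GENCODE). It measured 69.0, 73.9 and 8.14 CPM in the Control libraries and 32.2, 48.3 and 57.5 CPM in the IL-33 libraries. Its Control 3 value was -3.10 on the log2 scale from the other Control libraries, the second lowest of all 5287 genes. NDUFC1, also of the membrane arm, measured 133, 150.4 and 63.5 CPM in the Control libraries and 109, 128 and 152 CPM in the IL-33 libraries. ATP5H, the d subunit of the peripheral stalk, measured 97.6, 106 and 46.0 CPM in the Control libraries and 95.7, 89.7 and 94.9 CPM in the IL-33 libraries. In NDUFC1 and ATP5H the Control 3 value lay below all other libraries. The other 5 overlapped in NDUFC1, and in ATP5H the IL-33 values lay below both Control 1 and Control 2.

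**Figure D4:**
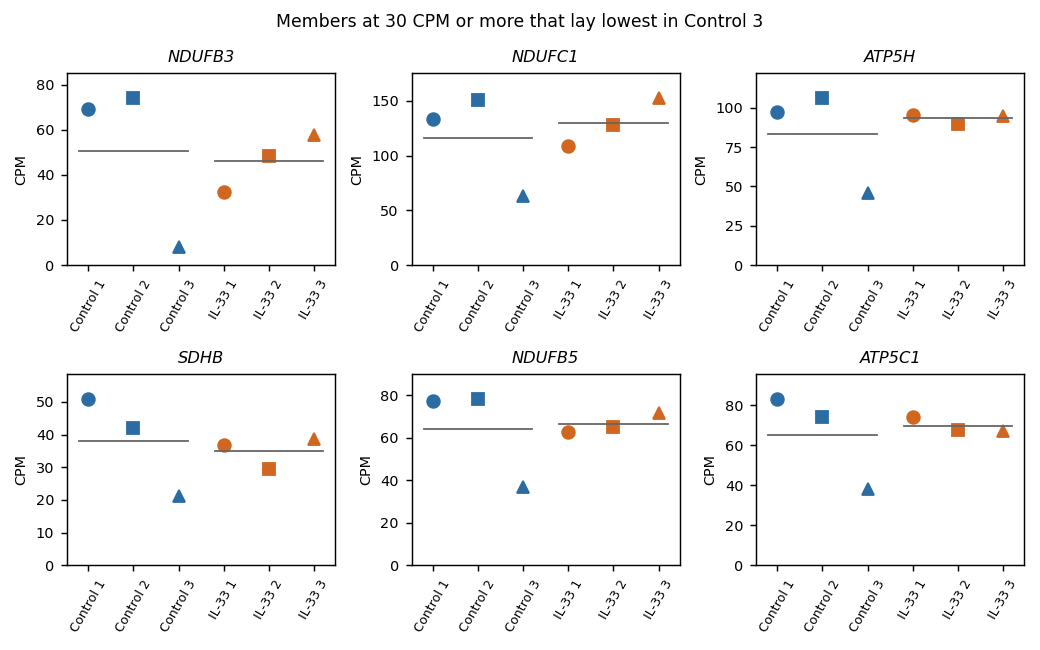
Level in CPM of the 6 members at 30 CPM or more that lay more than 1 log2 unit lower in Control 3 than in the other Control libraries. Each mark is a library, Control in blue and IL-33 in orange, and horizontal lines are group means. In all 6 panels Control 3 is the lowest library, at 8.14 CPM for NDUFB3.

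By complex, the median difference of Control 3 from the other Control libraries was -0.94 for the 4 genes of complex II and between -0.07 and 0.10 for the other complexes. Control 3 was the lowest library for 17 of the 78 members and the highest for 26, and in the whole table the lowest for 1386 of 5287 genes and the highest for 1902. The 6 members low in Control 3 had a median GC content of 35.5% over the last 300 bases of their longest annotated protein-coding transcript. The other 72 members had 43.3%. In the whole table these medians were 36.0% and 39.3%. Over the full length of those transcripts the medians were 44.6% and 48.8% in the members, and 47.2% and 47.9% in the whole table. Whether the tagged 3' end is the end of that transcript was not checked. Total depth was also lowest in Control 3, and the part of depth or transcript ends in these values was not tested.

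Without Control 3, 0 of 89 members changed at an adjusted p of 0.05 by edgeR, against 6 of 12611 genes (0.0476%). At an unadjusted p under 0.05 there were 8 members (8 of 89), 4 higher and 4 lower, where 6.30% of all genes reached that level. The lower ones were NDUFB3, SDHD, SDHB and ATP5A1. For NDUFB3 the log2 fold change moved from -0.15 ± 0.82 with all libraries to -0.64 ± 0.16 (SE), with an adjusted p of 0.157. Its remaining values no longer overlapped, since 57.5 CPM, the highest with IL-33, lay below the 69.0 CPM of Control 1. SDHD moved to -0.86 ± 0.26 (adjusted p = 0.380 by edgeR), SDHB to -0.42 ± 0.16 and ATP5A1 to -0.26 ± 0.10. The higher ones were ATP5I, ATP5L, NDUFA13 and NDUFA10, with log2 fold changes between 0.17 and 0.23. In NDUFC1, ATP5H, NDUFB5 and ATP5C1 the log2 fold changes were 0.16, 0.16, 0.04 and 0.09 with all libraries. Without Control 3 they turned to -0.13, -0.13, -0.23 and -0.17, none past an unadjusted p of 0.05 by edgeR. These genes, NDUFB3 and SDHB were picked for a low Control 3 value. A lower fold change without that library therefore follows from the choice of genes. The median over the members was 0.04 without that library, against 0.02 with it. NDUFB3 overlaps FAM126B, at 13.5 CPM on the opposite strand.

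**Figure D5:**
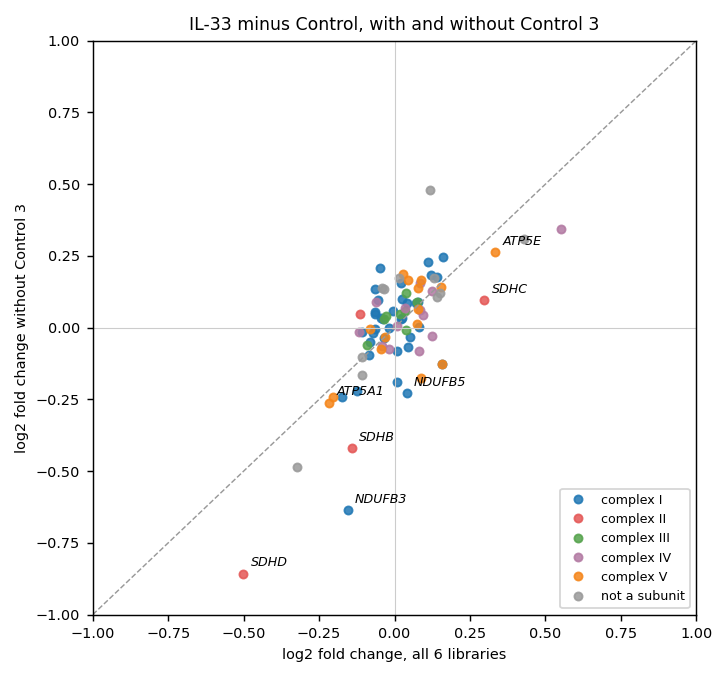
Log2 fold change of IL-33 against Control for the tested members reported, with all 6 libraries (horizontal axis) and without Control 3 (vertical axis), coloured by complex, with the line of equal values dashed. Most members lie near the line. NDUFB3, SDHB and SDHD lie below it, at -0.64, -0.42 and -0.86 without Control 3. NDUFC1, ATP5H, NDUFB5 and ATP5C1 also lie below it, and others above it, such as ATP5L2 at 0.48 and NDUFA13 at 0.21.

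Many nuclear genes of this pathway are known to be driven by nuclear respiratory factor 1 (NRF1) and by ETS-family factors such as GABP, and the promoters were searched for the letters of their sites. RefSeq sequences on GRCh38.p14 of 300 bases around the gene start were matched by symbol for 68 of the 83 subunits. The windows below, which end at or before the RefSeq gene start, show examples from 4 complexes with every match of the named core in capitals on the strand of the gene, 5' to 3'. They were chosen because they also lie outside the gene as GENCODE annotates it.
NDUFS6 (NRF1 core, chr5:1801336-1801395, plus strand): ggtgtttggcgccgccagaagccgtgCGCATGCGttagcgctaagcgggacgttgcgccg
NDUFB4 (NRF1 core, chr3:120596152-120596211, plus strand): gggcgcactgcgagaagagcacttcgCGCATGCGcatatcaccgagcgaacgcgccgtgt
COX6A1 (NRF1 core, chr12:120437868-120437927, plus strand): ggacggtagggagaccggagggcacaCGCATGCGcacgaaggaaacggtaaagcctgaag
UQCR11 (ETS core, chr19:1605546-1605605, minus strand): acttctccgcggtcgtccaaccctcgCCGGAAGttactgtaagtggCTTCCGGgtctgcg
NDUFB7 (ETS core, chr19:14572067-14572126, minus strand): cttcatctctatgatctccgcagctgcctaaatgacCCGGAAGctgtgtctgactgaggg
ATP5H (ETS core, chr17:75047037-75047096, minus strand): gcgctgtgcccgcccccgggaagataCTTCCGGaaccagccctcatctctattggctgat

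The NRF1 core CGCATGCG, which reads the same on both strands, was present in 10 of the 68 subunit promoters (14.7%). It was present in 2.19% of all 27305 promoters and in 4.48% of the 6936 promoters of genes at 10 CPM or more. The ETS core, searched as CCGGAAG or CTTCCGG, was present in 19 (27.9%), against 10.7% and 21.7%. The YY1 core, searched as ATGGCGG or CCGCCAT, was also present in 19 (27.9%), against 5.72% and 12.6%. The SP1 box, searched as GGGCGG or CCGCCC, was present in 57.4%, against 44.6% and 73.2%, and the TATA box, TATAAA or TTTATA, in 10.3%, against 12% and 4.74%. No motif in this search contains another, although matches can overlap in a sequence. The NRF1 or ETS core was present in 25 of the 68, and ATP5I, ATP5J, COX6A1 and SDHD held both. The 10 subunits with the NRF1 core had a median level of 183 CPM, and the 54 other tested subunits of the matched set 132 CPM. With and without the motif, the medians were 197 and 121 CPM for ETS and 140 and 135 CPM for TATA. The order was the other way for YY1, at 134 and 141 CPM, and for SP1, at 125 and 150 CPM. These are counts of letters in a window and are given as a description, with no test.

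Genes that work beside the subunits were read from lists of the same fit, and 0 passed the test in any of them. Assembly factors outside the symbol rule had 48 tested genes, 30 of them above 0, with a median log2 fold change of 0.03. COX17, the copper chaperone of complex IV, measured 70.7, 82.4 and 44.7 CPM in the Control libraries and 88.7, 85.1 and 72.9 CPM in the IL-33 libraries, and its log2 fold change of 0.31 ± 0.18 (SE) was 0.10 without Control 3. COX19, which also serves copper delivery, measured 27.0, 31.7 and 30.4 CPM in the Control libraries and 24.0, 24.2 and 25.2 CPM in the IL-33 libraries, and all its IL-33 values lay below all Control values (log2 fold change -0.28 ± 0.18, SE). Regulators of mitochondrial biogenesis had 19 tested genes of 22, with 9 above 0 and a median of 0.00. POLG, the mitochondrial DNA polymerase, had 0.50 ± 0.31, and TEFM, the mitochondrial transcription elongation factor, -0.43 ± 0.28. With each library left out in turn these ran from 0.32 to 0.74 for POLG and from -0.63 to -0.17 for TEFM. PPARGC1A, the coactivator that drives biogenesis in many tissues, had 40 counts in all libraries together and was not tested.

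Citric acid cycle genes had 12 tested members, 7 above 0, with a median log2 fold change of 0.04. OGDH, of the oxoglutarate dehydrogenase complex, measured 19.3, 18.8 and 22.3 CPM in the Control libraries and 23.1, 25.1 and 22.9 CPM in the IL-33 libraries, all IL-33 values above all Control values (log2 fold change 0.24 ± 0.19, SE). SUCLA2, a succinyl-CoA ligase subunit, had 0.39 ± 0.32. Genes of import and the outer membrane had 16 tested members, 8 above 0, with a median of 0.00. The chaperonin gene HSPD1 measured 392 ± 26.7 CPM without IL-33 and 349.5 ± 31.7 CPM with it (SD, n = 3 each). Its log2 fold change was -0.16 ± 0.10 (SE), and that of the import gene TOMM5 was 0.12 ± 0.11. CYCS, cytochrome c, the carrier between complexes III and IV, measured 89.7, 88.8 and 90.8 CPM in the Control libraries and 94.5, 99.3 and 94.8 CPM in the IL-33 libraries. All its IL-33 values lay above all Control values, and the log2 fold change of 0.10 ± 0.11 did not pass the test.

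The counting of these genes has 2 further limits. Of the 97 members, 25 overlap a gene of 10 CPM or more on the opposite strand, such as NDUFA7 with RPS28 (1418 CPM) and ATP5A1 with HAUS1 (23.1 CPM). The library type keeps the strand, but the setting used in the counting is not given in the sources used here. Many of these genes also have near-identical pseudogenes, and how shared reads were treated is likewise not given there.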

How the data were processed

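The authors deposited whole-number read counts per gene symbol in 1 table, 1 column per library. TRIZOL was used for extraction and the Lexogen QuantSeq FWD kit for the libraries, per the labels' protocols. The submitters' processing notes name hg38, edgeR, HTSeq 0.6.1 and STAR 2.7.5a. Their settings and the annotation were not given in the sources used here. Of 27470 rows, 1 held no values and was left out, as were 7 unnamed columns without values.

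The whole table was tested with edgeR 4.0.16 (R 4.3.3): filterByExpr (count minimum 10, total minimum 15), TMM scaling, the robust quasi-likelihood test with no term but the group, and Benjamini-Hochberg adjustment over the 12125 genes left. Standard errors and 95% intervals came from the same fit. CPM used TMM-scaled library sizes. Libraries of a group differed beyond sampling noise (chi-square per degree of freedom 5.60 to 16.5 over 6 pairs), so none were merged. Library totals ran from 5739947 to 10217529 counts.

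The members, the gene lists and the naming rule were chosen with earlier results of these data known. Named were, per complex, the most abundant member, the 2 of smallest p and those whose groups did not overlap at 10 CPM or more, besides the catalytic core, alternative forms, members of 3 counts or fewer, and up to 2 genes per pathway list. A member so named is not reported here. Other genes, including those low in Control 3 and the pseudogene copy, were named after their values were seen. Marker lists for astrocytes, neurons, oligodendrocytes and endothelial cells summed to no more than 7.35 CPM in any library. Alternatives were DESeq2 size factors, library size alone, no filter, a filter at 10 CPM, DESeq2 1.42.0, limma-voom (limma 3.58.1), the replicate number as a block, and each library left out. Positions came from GENCODE on GRCh38 and promoters from RefSeq. Figures used matplotlib 3.10.9.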

Additional observations from a re-analysis of the deposited data

How the results depend on the processing

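No member changed under any of the 13 alternatives. Over all genes, 3 were called with no low-count filter and 0 to 6 when each library was left out, with the 6 reached without Control 3. The median log2 fold change of the members ran from -0.0138 to 0.0576 when each library was left out. The number of members at an unadjusted p under 0.05 was 1 without Control 1, 1 without Control 2 and 8 without Control 3, where 2.89%, 3.25% and 6.30% of all genes tested reached it. With library size alone, 5 members lay above and 1 below in all IL-33 libraries, beside 4.60% and 3.60% of all genes. For 34 of the named genes the direction was followed under the alternatives. Of their 439 log2 fold changes, 418 kept their direction and 21 did not, in 10 of the 34 genes. NDUFB3 was 0.11 with limma-voom and 0.12 with the replicate block, and ran from -0.64 to 0.21 with each library left out. The ranges that crossed 0 on leaving out a library were -0.0223 to 0.0890 for UQCRB, -0.0673 to 0.17 for NDUFAF8, -0.12 to 0.0492 for NDUFS6, -0.31 to 0.0475 for SDHA, -0.42 to 0.13 for SDHB, -0.13 to 0.39 for NDUFC1, -0.13 to 0.36 for ATP5H, -0.23 to 0.21 for NDUFB5 and -0.17 to 0.31 for ATP5C1. These ranges cover those 34 genes alone, and other named genes were not followed under all alternatives. NDUFV1, COX4I1 and CYC1 were among those that turned without Control 3, from -0.07, -0.06 and -0.09 to 0.14, 0.09 and 0.01. The cause was not tested. Same-numbered libraries correlated at -0.09, 0.03 and -0.14 in their deviations from the group means, and the labels do not say that a number pairs them. With the replicate block, 0 genes passed and 213 reached an unadjusted p under 0.05, against 295 without it. Low counts limit COX6B2 and the assembly factors under 10 CPM.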
